A study of Mus musculus with 18 samples.

Results

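The genes described here encode the DNA replication machinery and other products that cells make around S phase, the part of the cell cycle in which the genome is copied. The set was given as 50 gene symbols, without the MCM helicase genes, and each symbol was matched to its transcript cluster on the array, the set of probes that the array's design assigns to a gene. All 50 symbols were measured, each by 1 cluster, out of 40161 clusters with a gene symbol. The livers came from 18 adult healthy male mice, with 1 array per mouse, after transduction with adeno-associated virus (AAV), a viral vector used to carry genes into tissue. There were 6 groups of 3 arrays, HPNWT livers and EGFP livers taken at day 1, at day 2 or at day 4. EGFP is a green fluorescent protein used as the vector control, and all 18 mice received AAV, so no liver without the vector enters any comparison. The design text of the series speaks of overexpression of hepsin, a membrane serine protease, in the liver, and its title asks about liver regeneration and epidermal growth factor receptor signalling. The strain, the age in weeks, the promoter of the vector, what HPNWT stands for and the event from which days were counted are not given in the sources used here.

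Before a cell copies its DNA, the origin recognition complex, Cdc6 and Cdt1 load the MCM helicase onto origins. The kinase Cdc7 with Dbf4 then fires the origins, Cdc45 and the GINS complex turn the helicase on, replication protein A coats the unwound strands, and primase and the DNA polymerases copy them around the sliding clamp PCNA. E2F transcription factors switch on many of these genes as cells leave G1. Most hepatocytes of an adult liver rest outside the cell cycle, and they enter S phase when the liver regenerates.

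The hepsin gene itself, Hpn, was not called at any day. The differences were −0.06, −0.08 and 0.11 log2 at day 1, day 2 and day 4, with limma adjusted p of 0.894, 0.731 and 0.809, so every direction below rests on the labels alone. The 8 hepatocyte markers (Alb, Apoa1, Ttr, Cps1, Fgb, Hnf4a, Serpina1a and Tat) averaged between 11.82 and 12.04 log2 on every array. All arrays correlated at 0.982 or above with each other, and the sources used here give no batch. The 5222 negative-control probe sets had lower medians in HPNWT than in EGFP arrays. Their medians averaged 3.04 in HPNWT and 3.20 in EGFP arrays at day 1, 3.04 in HPNWT and 3.41 in EGFP arrays at day 2, and 3.06 in HPNWT and 3.18 in EGFP arrays at day 4. Their 95th percentile averaged 6.16 log2, and 46 of the 50 genes had a mean over the 18 arrays below it. The 4 above it were Rfc2, Rpa1, Pold2 and Gins4. Differences are therefore given as differences of log2 signal, without a fold. In whole liver, more cells expressing a gene and more of its RNA per cell cannot be told apart.

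At day 2 and day 4, genes of several steps of replication were higher in HPNWT livers, while at day 1, 3 genes passed the test. At day 2, 15 of the 50 genes were higher and none was lower, against 2.16% of all clusters that were higher and 3.51% that were lower (limma adjusted p under 0.05, Benjamini-Hochberg over all 40161 clusters). These were Rfc2, Rfc4, Rpa2, Prim2, Pole, Gins1, Cdc45, Lig1, Uhrf1, Chaf1a, Chaf1b, Ung, Brca1, Timeless and E2f1. At day 4, 10 genes were higher and none was lower, against 1.54% of all clusters higher and 0.670% lower. They were Rpa2, Pole, Cdc45, Lig1, Rrm1, Rrm2, Chaf1b, Brca1, Wdhd1 and E2f1. At day 1, Rpa2 and Brca1 were higher and Tk1 was lower, against 2.97% of all clusters higher and 1.62% lower. In all, 19 of the 50 genes passed on at least 1 day and 31 on none. At an unadjusted p under 0.05, in either direction, there were 13 genes at day 1, 33 at day 2 and 34 at day 4. Of all 40161 clusters, 6326, 7993 and 4904 were under it at day 1, day 2 and day 4.

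The median difference of the 50 genes was 0.06 log2 at day 1, 0.21 at day 2 and 0.20 at day 4, beside 0.0066, 0.0477 and 0.0068 over all clusters with a symbol. At day 2, 48 of the 50 differences lay above 0, against 62.9% of all clusters. After median centring 40 did, and after repeated quantile normalization 42, with no share of all clusters beside these counts. At day 4, 46 lay above 0, against 52.2% of all clusters, and at day 1, 37 did, against 52.2%. For 34 genes all 3 HPNWT arrays lay above all 3 EGFP arrays at day 2 (21.2% of all clusters), and for 32 genes at day 4 (9.91% of all clusters). The corresponding count at day 1 was 10 genes (10.0% of all clusters). All 3 HPNWT arrays lay below all 3 EGFP arrays for Tk1 and Cdc45 at day 1 (8.21% of all clusters), for Tk1 at day 2 (13.1%) and for no gene of the set at day 4 (5.70%). The 90th percentile of all differences was 0.21 log2 at day 1, 0.22 at day 2 and 0.19 at day 4, and 12, 23 and 28 of the 50 genes lay above these values.

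**Figure D1:**
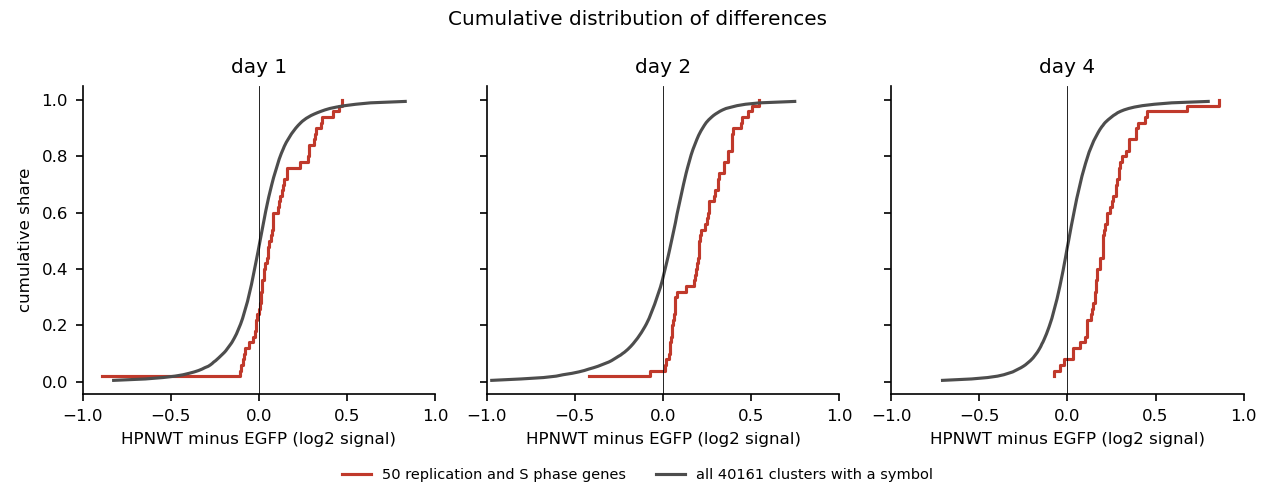
Cumulative share of genes (vertical axis) by their difference HPNWT minus EGFP in log2 signal (horizontal axis) at each day, for the 50 replication and S phase genes and for all 40161 clusters with a symbol. The curve of the replication genes lies to the right of the other at day 2 and day 4, with medians of 0.21 and 0.20, and nearer to it at day 1, with a median of 0.06.

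The counts depended on single arrays. At day 2 the count of 15 ran from 4 to 22 when each of the 18 arrays was left out in turn. The share of all clusters called higher ran from 0.779% to 3.7% in the same fits. Leaving out HPNWT day 2 arrays gave 7 genes (replicate 1), 6 (replicate 2) and 9 (replicate 3), and leaving out EGFP day 2 arrays gave 9 (replicate 1), 4 (replicate 2) and 5 (replicate 3). The count of 10 at day 4 ran from 2 to 12, and the share of all clusters called higher from 0.924% to 1.74%. The count was 5 when HPNWT day 4 replicate 3 was left out, and leaving out EGFP day 4 arrays gave 2 (replicate 1), 3 (replicate 2) and 6 (replicate 3). The 3 calls of day 1 became 10 (9 higher, 1 lower) without HPNWT day 1 replicate 3. They became 7 (6 higher, 1 lower) without HPNWT day 4 replicate 3. In these 2 fits 4.97% and 4.21% of all clusters were higher at day 1. With the fit limited to the 6 arrays of a day, 18 genes were higher and Tk1 was lower at day 2. Tk1 alone passed at day 1, as lower, and no gene passed at day 4. Of all clusters, 4.11%, 1.1% and 0.284% were higher in the fits of day 2, day 1 and day 4. With the median of the negative-control probe sets as a covariate, 1 gene was higher and 1 lower at day 1. None passed at day 2, and 8 were higher at day 4. Higher calls then made up 1.98%, 0.177% and 1.29% of all clusters at day 1, day 2 and day 4. For the 15 genes of day 2 this covariate left a median of 79.5% of the difference and raised the standard error (SE) 1.52 times, and adjusted p ran from 0.136 to 0.763. The part of the negative-control level in the result was not tested. Over the fits without 1 array, the median difference of the set stayed within 0.04 to 0.10 at day 1, 0.20 to 0.24 at day 2 and 0.17 to 0.25 at day 4.

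The mean signal of the 50 genes on each array showed the same order of groups. It was 4.70, 4.66 and 4.52 log2 in HPNWT livers and 4.57, 4.51 and 4.54 in EGFP livers at day 1, where the groups overlapped. HPNWT livers had 4.68, 4.72 and 4.73 at day 2, against 4.52, 4.50 and 4.48 in EGFP livers. The day 4 means were 4.71, 4.76 and 4.85 in HPNWT livers and 4.53, 4.54 and 4.57 in EGFP livers, so that the groups stood apart on both later days. The highest value, 4.85, came from HPNWT day 4 replicate 3. That array also had the highest mean of the 6 endothelial markers, 8.01 against at most 7.50 on the other arrays, and of the 6 stellate cell markers, 6.91 against at most 6.29. The part of these cells in the day 4 values was not tested, and without that array 5 genes passed at day 4.

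**Figure D2:**
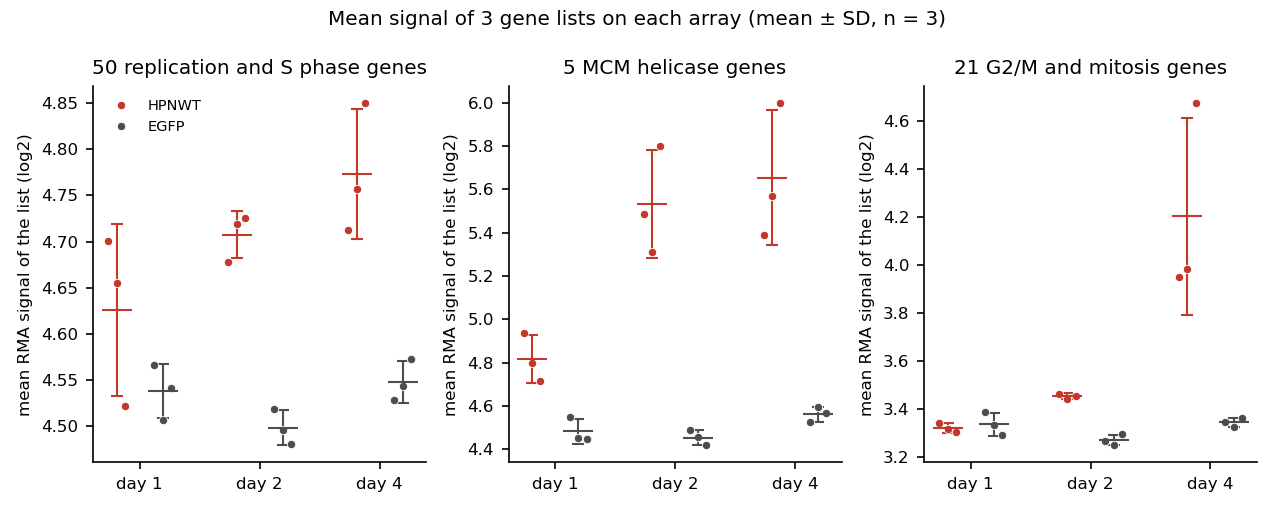
Mean log2 RMA signal of 3 gene lists on each array (vertical axis) by day, with HPNWT left of EGFP; points are arrays, the horizontal line is the mean and the bars are the SD of 3 arrays. The replication genes overlap between HPNWT and EGFP at day 1 only, the MCM genes stand apart at all 3 days, and the G2/M genes reach 3.95, 3.98 and 4.68 in HPNWT livers at day 4.

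Promoter sequences were taken from RefSeq (build GRCm38.p6, 250 bases before to 50 after each start) to show the letters around the starts of these genes, whether or not they were called. A promoter was found for 41 of the 50 genes, and Rfc2, Prim2, Pole, Gins1, Gins2, Gins4, Gmnn, Exo1 and Tipin had none in the table. The forms of the E2F motif searched on both strands were TTCCCGC, then the form TTCGCGC, then the form TTGCCGC, then the form TTGGCGC. They stood in 28 of the 50 promoters of the 41 genes, since some genes have several starts, which is 56%, and in 9.57% of all 32851 promoters of that length. The NF-Y letters CCAAT stood in 48% of the 50 promoters and 37.4% of all promoters. The CHR letters TTTGAA or TTCGAA, which mark many G2/M genes, stood in 18% of the 50 promoters and 19.2% of all promoters. Counted by gene, 25 of the 41 had an E2F match in at least 1 promoter. Of the 25 genes with an E2F match, 7 were higher at day 2 and 7 at day 4, with median differences of 0.25 and 0.21 log2. Among the 16 without one in the windows searched, 4 and 2 were higher, with medians of 0.20 and 0.19. The promoters of Rpa2, Brca1, Chaf1b, Cdc45, E2f1 and Tk1 are shown 5′ to 3′ because Rpa2 and Brca1 were called at all 3 days, Chaf1b, Cdc45 and E2f1 at day 2 and day 4, and Tk1 alone in the other direction. Capitals mark E2F matches. They begin 37 bases before the start in Rpa2, 227 before and 26 after it in Chaf1b, and 21 after it in Brca1. The windows of Cdc45 and E2f1, which were higher, and of Tk1, which was lower, hold none of the E2F forms. A window holds only the 300 bases around a listed start, and bases outside it were not searched. Whether the listed start is the one used in liver was not tested. A window without a match, as for E2f1, therefore does not show that the gene lacks E2F sites. The first part of the E2f1 window can be read as codons without a stop, so it may lie inside the gene and not before it. That was not tested, and E2f1 is counted among the 16 genes without a match. Lig1, also called at day 2 and day 4, has 3 promoters in the table, of which 2 hold a match, and is not printed.
Rpa2 (chr4:132768110-132768409, plus strand): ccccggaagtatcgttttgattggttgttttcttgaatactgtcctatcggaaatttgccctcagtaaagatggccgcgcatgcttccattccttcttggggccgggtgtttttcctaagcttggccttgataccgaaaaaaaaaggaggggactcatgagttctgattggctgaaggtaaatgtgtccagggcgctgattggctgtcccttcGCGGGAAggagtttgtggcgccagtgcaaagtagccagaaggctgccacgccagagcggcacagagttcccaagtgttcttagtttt
Chaf1b (chr16:93883651-93883950, plus strand): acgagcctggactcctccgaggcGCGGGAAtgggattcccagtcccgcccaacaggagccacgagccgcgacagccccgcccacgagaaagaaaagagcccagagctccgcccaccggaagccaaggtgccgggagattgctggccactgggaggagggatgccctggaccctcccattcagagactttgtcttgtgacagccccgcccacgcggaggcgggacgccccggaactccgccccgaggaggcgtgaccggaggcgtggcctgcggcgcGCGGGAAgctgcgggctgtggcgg
Brca1 (chr11:101551906-101552205, minus strand): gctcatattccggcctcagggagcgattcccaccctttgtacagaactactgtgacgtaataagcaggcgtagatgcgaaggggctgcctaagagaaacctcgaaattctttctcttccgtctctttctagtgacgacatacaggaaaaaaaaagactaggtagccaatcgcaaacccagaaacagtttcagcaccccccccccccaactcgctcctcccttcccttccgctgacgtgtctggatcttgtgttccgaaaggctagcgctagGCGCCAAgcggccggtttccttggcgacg
Cdc45 (chr16:18811923-18812222, minus strand): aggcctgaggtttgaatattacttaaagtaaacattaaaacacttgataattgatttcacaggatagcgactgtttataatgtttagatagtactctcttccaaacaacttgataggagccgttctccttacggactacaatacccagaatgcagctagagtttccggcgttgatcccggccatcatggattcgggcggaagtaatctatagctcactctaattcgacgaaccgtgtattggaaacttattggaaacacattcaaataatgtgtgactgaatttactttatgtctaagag
E2f1 (chr2:154569377-154569676, minus strand): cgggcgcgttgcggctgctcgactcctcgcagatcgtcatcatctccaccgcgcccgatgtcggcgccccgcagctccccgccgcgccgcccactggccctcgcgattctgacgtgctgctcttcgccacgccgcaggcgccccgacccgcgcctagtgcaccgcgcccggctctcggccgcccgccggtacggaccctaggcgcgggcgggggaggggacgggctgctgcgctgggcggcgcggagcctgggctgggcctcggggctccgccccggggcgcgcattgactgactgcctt
Tk1 (chr11:117825965-117826264, minus strand): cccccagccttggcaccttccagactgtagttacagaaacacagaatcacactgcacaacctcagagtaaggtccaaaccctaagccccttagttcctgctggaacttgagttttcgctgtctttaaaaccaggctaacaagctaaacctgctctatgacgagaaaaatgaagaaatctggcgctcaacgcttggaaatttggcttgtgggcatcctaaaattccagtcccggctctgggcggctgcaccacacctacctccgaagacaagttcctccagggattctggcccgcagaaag

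E2f1, the transcription factor that activates many replication genes, was higher in HPNWT livers at day 2 and day 4. Its log2 signals at day 2 were 5.41, 5.38 and 5.26 in HPNWT livers, against 5.08, 5.02 and 5.02 in EGFP livers. At day 4 they were 5.43, 5.46 and 5.44 in HPNWT livers, against 5.07, 5.07 and 5.26 in EGFP livers. On both days every HPNWT array lay above every EGFP array. The differences were 0.31 log2 (SE 0.07, limma adjusted p = 0.0214) at day 2 and 0.31 (SE 0.07, adjusted p = 0.0386) at day 4. The HPNWT values of 5.12, 5.16 and 5.17 at day 1 overlapped with the EGFP values of 5.31, 5.14 and 5.05. When 1 of the 18 arrays was left out, E2f1 missed the threshold in 4 fits at day 2 (adjusted p up to 0.0922, without HPNWT day 2 replicate 2) and in 11 at day 4 (up to 0.167, without EGFP day 4 replicate 1).

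None of the 6 genes of origin recognition and licensing passed in limma on any day. At an unadjusted p under 0.05 there were 1, 3 and 5 of them at day 1, day 2 and day 4. Of all 40161 clusters, 6326, 7993 and 4904 were under it. Cdc6, the ATPase that recruits the MCM helicase, had 3.98, 3.92 and 3.91 log2 in HPNWT livers at day 2, against 3.78, 3.68 and 3.75 in EGFP livers. Its HPNWT arrays were all above the EGFP arrays, by 0.20 log2 (SE 0.06), with an adjusted p of 0.0603. At day 4 the Cdc6 signals were 4.02, 3.94 and 3.94 in HPNWT livers and 3.80, 3.82 and 3.85 in EGFP livers, again without overlap (difference 0.14, SE 0.06, adjusted p = 0.315). At day 1 they were 3.77, 3.82 and 3.88 in HPNWT livers and 3.87, 3.74 and 3.73 in EGFP livers, which overlapped. Its loading partner Cdt1 differed by 0.35 log2 at day 4 (adjusted p = 0.109), while the Cdt1 inhibitor Gmnn differed by 0.16 (adjusted p = 0.388). Orc2, a subunit of the origin recognition complex, had its lowest adjusted p at day 1 (0.0504, difference 0.33). Differences of the kinase subunit Cdc7 and its activator Dbf4 were 0.05 and 0.07 at day 2 and 0.10 and 0.35 at day 4, with an adjusted p of 0.0713 for Dbf4 at day 4.

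Of the 5 genes of the Cdc45 and GINS group, which turn the loaded helicase on, Gins1 and Cdc45 were higher at day 2 and Cdc45 at day 4. Cdc45 had log2 signals of 4.45, 4.53 and 4.39 in HPNWT livers at day 2, against 4.23, 4.27 and 4.23 in EGFP livers. The day 4 signals were 4.53, 4.46 and 4.63 in HPNWT livers and 4.30, 4.23 and 4.33 in EGFP livers. HPNWT arrays were above EGFP arrays without overlap on both days, by 0.21 (SE 0.06, limma adjusted p = 0.0492) and 0.25 (SE 0.06, adjusted p = 0.0345). At day 1 the order was turned, with 4.27, 4.27 and 4.23 in HPNWT livers all below 4.34, 4.31 and 4.36 in EGFP livers, though that difference of −0.08 did not pass (adjusted p = 0.617). Gins1 had 3.90, 4.05 and 4.09 in HPNWT livers at day 2, against 3.71, 3.78 and 3.44 in EGFP livers. The Gins1 groups did not overlap, and the difference was 0.37 (SE 0.09, adjusted p = 0.029). The other subunits Gins2, Gins3 and Gins4 differed by 0.06 to 0.24 at day 2 and 0.13 to 0.20 at day 4 and did not pass. Without 1 array, Cdc45 missed the threshold in 16 of 18 fits at day 2 (adjusted p up to 0.218, without HPNWT day 2 replicate 2) and in 8 at day 4 (up to 0.15, without EGFP day 4 replicate 2). Gins1 missed it in 3 fits (up to 0.14, without EGFP day 2 replicate 3).

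Replication protein A, the complex that coats single-stranded DNA, has 3 subunits, and only the gene of the middle one, Rpa2, passed at any day. Rpa2 had log2 signals of 5.20, 4.96 and 4.83 in HPNWT livers at day 1, against 4.60, 4.51 and 4.46 in EGFP livers. At day 2 it had 4.957, 4.999 and 4.950 in HPNWT livers, against 4.48, 4.40 and 4.39 in EGFP livers, and at day 4 HPNWT livers had 4.92, 4.99 and 4.96, against 4.54, 4.50 and 4.68 in EGFP livers. All HPNWT arrays lay above all EGFP arrays at each day. The differences were 0.47 (limma adjusted p = 0.00305), 0.54 (adjusted p = 0.00111) and 0.39 (adjusted p = 0.0166) at day 1, day 2 and day 4, with an SE of 0.08 each. The calls of day 1 and day 2 passed without any 1 of the 18 arrays, and that of day 4 did not in 3 fits (up to 0.0872, without EGFP day 4 replicate 2). In fits on the 6 arrays of a day the Rpa2 calls of day 1 and day 4 did not pass, and with the negative-control covariate that of day 2 did not. Rpa1, the large subunit, differed by −0.01, 0.26 and 0.29 over the days, with adjusted p of 0.0839 at day 2 and 0.0984 at day 4. Rpa3, the small subunit, differed by 0.01, 0.04 and −0.08. Whether Rpa2 differed more than its partners was not tested.

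Among the 9 genes of polymerases and primase, Pole and Prim2 were higher at day 2 and Pole at day 4. Pole encodes the catalytic subunit of polymerase epsilon, which copies the leading strand. Its log2 signals at day 2 were 3.92, 3.93 and 4.07 in HPNWT livers, against 3.57, 3.49 and 3.51 in EGFP livers, and at day 4 they were 3.88, 3.94 and 4.10 in HPNWT livers, against 3.51, 3.56 and 3.53 in EGFP livers. The groups were far apart on both days compared with the spread within each. The differences were 0.45 (SE 0.07, limma adjusted p = 0.0011) and 0.44 (SE 0.07, adjusted p = 0.00155), and both passed without any 1 of the 18 arrays. The day 4 call did not pass on the 6 arrays of that day, nor the day 2 call with the negative-control covariate. At day 1 the HPNWT values of 3.62, 3.58 and 3.55 overlapped with the EGFP values of 3.68, 3.57 and 3.60. Its partner subunit Pole2 differed by 0.19 at day 2 and 0.20 at day 4 (adjusted p = 0.113 and 0.164). Prim2, the large subunit of primase, had 5.26, 5.31 and 5.49 in HPNWT livers at day 2, against 5.03, 4.99 and 4.86 in EGFP livers. These did not overlap, with a difference of 0.39 (SE 0.10, adjusted p = 0.036), which missed the threshold in 6 fits without 1 array (up to 0.138, without EGFP day 2 replicate 3). Prim1, the catalytic primase subunit, differed by 0.44 at day 2 (adjusted p = 0.0736). The genes of polymerase alpha (Pola1, Pola2) and polymerase delta (Pold1, Pold2, Pold3) differed by 0.01 to 0.21 at day 2 and −0.02 to 0.24 at day 4, with no call. Pold2 was nearest to the threshold at day 1 (0.32, adjusted p = 0.0631). Aebp1, a gene that overlaps Pold2 in the annotation, differed by 0.01 at day 1 and 0.17 at day 4. It was higher at day 2 (0.25, adjusted p = 0.0255), when Pold2 differed by 0.21, and its part in the Pold2 signal was not tested.

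The sliding clamp and its loader gave 2 calls, Rfc2 and Rfc4 at day 2. Rfc2 had log2 signals of 6.38, 6.30 and 6.32 in HPNWT livers, against 5.95, 5.90 and 5.98 in EGFP livers. Rfc4 had 4.21, 4.30 and 4.39 in HPNWT livers, against 4.01, 3.93 and 3.87 in EGFP livers. Neither of these subunits of replication factor C overlapped between groups. The differences were 0.39 (SE 0.08, limma adjusted p = 0.0127) for Rfc2 and 0.37 (SE 0.09, adjusted p = 0.0244) for Rfc4. Rfc2 missed the threshold in 1 fit without 1 array (adjusted p = 0.0639, without EGFP day 2 replicate 2) and Rfc4 in 4 (up to 0.0958, without EGFP day 2 replicate 3). At day 4 they differed by 0.29 and 0.28 (adjusted p = 0.0909 and 0.148), also without overlap. Pcna, which encodes the sliding clamp, had 5.81, 5.78 and 5.93 in HPNWT livers at day 2, against 5.62, 5.65 and 5.73 in EGFP livers. At day 4 it had 5.87, 5.89 and 5.86 in HPNWT livers and 5.75, 5.79 and 5.75 in EGFP livers, and at day 1 HPNWT livers had 5.81, 5.81 and 5.63, against 5.68, 5.68 and 5.77 in EGFP livers. Pcna arrays did not overlap at day 2 and day 4, but the differences of 0.18 and 0.11 (SE 0.07) did not pass (adjusted p = 0.141 and 0.554). The loader genes Rfc1, Rfc3 and Rfc5 differed by −0.08, 0.04 and 0.19 at day 2.

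Lig1, the ligase that seals Okazaki fragments on the lagging strand, was higher at day 2 and day 4. Its log2 signals were 4.38, 4.41 and 4.36 in HPNWT livers at day 2, against 4.11, 4.17 and 4.12 in EGFP livers, and 4.46, 4.49 and 4.59 in HPNWT livers at day 4, against 4.23, 4.20 and 4.29 in EGFP livers. HPNWT and EGFP arrays did not overlap on either day, but did at day 1, with 4.08, 4.19 and 4.20 in HPNWT livers and 4.28, 4.17 and 4.18 in EGFP livers. The differences were 0.25 (SE 0.06, limma adjusted p = 0.0212) and 0.28 (SE 0.06, adjusted p = 0.0193). They missed the threshold in 5 fits at day 2 (up to 0.0916, without HPNWT day 2 replicate 2) and 3 at day 4 (up to 0.0896, without EGFP day 4 replicate 2). Fen1, the nuclease that trims the fragments before ligation, differed by 0.45, 0.39 and 0.40 at day 1, day 2 and day 4, with an SE of 0.17 and no call. Tmem258, which overlaps Fen1 in the annotation, was higher at day 1 by 0.69 (adjusted p = 0.00491), and its part in the Fen1 signal was not tested.

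Calls among the 5 enzymes of nucleotide supply went in both directions, but on different days, and the only lower one was Tk1 at day 1, described below. Rrm1 and Rrm2, the subunits of ribonucleotide reductase that makes deoxynucleotides, were higher at day 4. Rrm2 had log2 signals of 5.30, 5.26 and 5.80 in HPNWT livers, against 4.75, 4.35 and 4.68 in EGFP livers, and Rrm1 had 5.50, 5.65 and 6.10 in HPNWT livers, against 4.95, 5.16 and 5.10 in EGFP livers. For both genes the groups stood apart, and HPNWT day 4 replicate 3 was the highest array. The differences were 0.86 for Rrm2 (SE 0.17, limma adjusted p = 0.0123), the largest rise among the 50 genes at any day, and 0.68 for Rrm1 (SE 0.15, adjusted p = 0.0249). Rrm2 missed the threshold in 1 fit (adjusted p = 0.0735, without EGFP day 4 replicate 2) and Rrm1 in 4 (up to 0.116, without EGFP day 4 replicate 1). At day 2 Rrm2 had 4.90, 5.22 and 5.15 in HPNWT livers and 4.65, 4.64 and 4.94 in EGFP livers, and at day 1 HPNWT livers had 5.19, 5.46 and 4.76, against 4.78, 4.83 and 4.54 in EGFP livers, with overlap on both days. Rrm1 differed by 0.50 at day 2 (adjusted p = 0.0653). Tyms, which makes thymidylate, and Dut, which breaks down dUTP, differed by 0.20 and 0.03 at day 2 and by 0.16 and −0.04 at day 4, with no call.

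Tk1, the thymidine kinase that salvages thymidine in cycling cells, was the only one of the 50 genes called lower on any day. Its log2 signals at day 1 were 5.31, 5.13 and 5.04 in HPNWT livers, against 6.15, 5.89 and 6.11 in EGFP livers. All HPNWT arrays lay below all EGFP arrays. The difference was −0.89 (SE 0.13, limma adjusted p = 0.000687), and it passed without any 1 of the 18 arrays. At day 2 Tk1 had 5.43, 5.64 and 5.57 in HPNWT livers, against 5.97, 5.76 and 6.17 in EGFP livers, still without overlap (−0.42, adjusted p = 0.0649). Tk1 was called lower at day 2 on the 6 arrays of that day, with array weights and without EGFP day 4 replicate 2. No other alternative called it at day 2. At day 4 the values of 5.74, 5.76 and 5.83 in HPNWT livers and 5.70, 6.16 and 5.68 in EGFP livers overlapped, with a difference of −0.07 that turned to 0.08 without EGFP day 4 replicate 2. Afmid, which encodes arylformamidase of the tryptophan pathway and overlaps Tk1 in the RefSeq annotation, was also lower, with 7.73, 7.22 and 7.54 log2 in HPNWT livers at day 1, against 8.51, 8.47 and 8.86 in EGFP livers. Its differences were −1.12 (adjusted p = 0.000817) at day 1, −0.77 (adjusted p = 0.0122) at day 2 and −0.42 (adjusted p = 0.272) at day 4. Whether probes of the Tk1 cluster pick up Afmid RNA was not tested, and the strand of the probes was not used here.

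**Figure D3:**
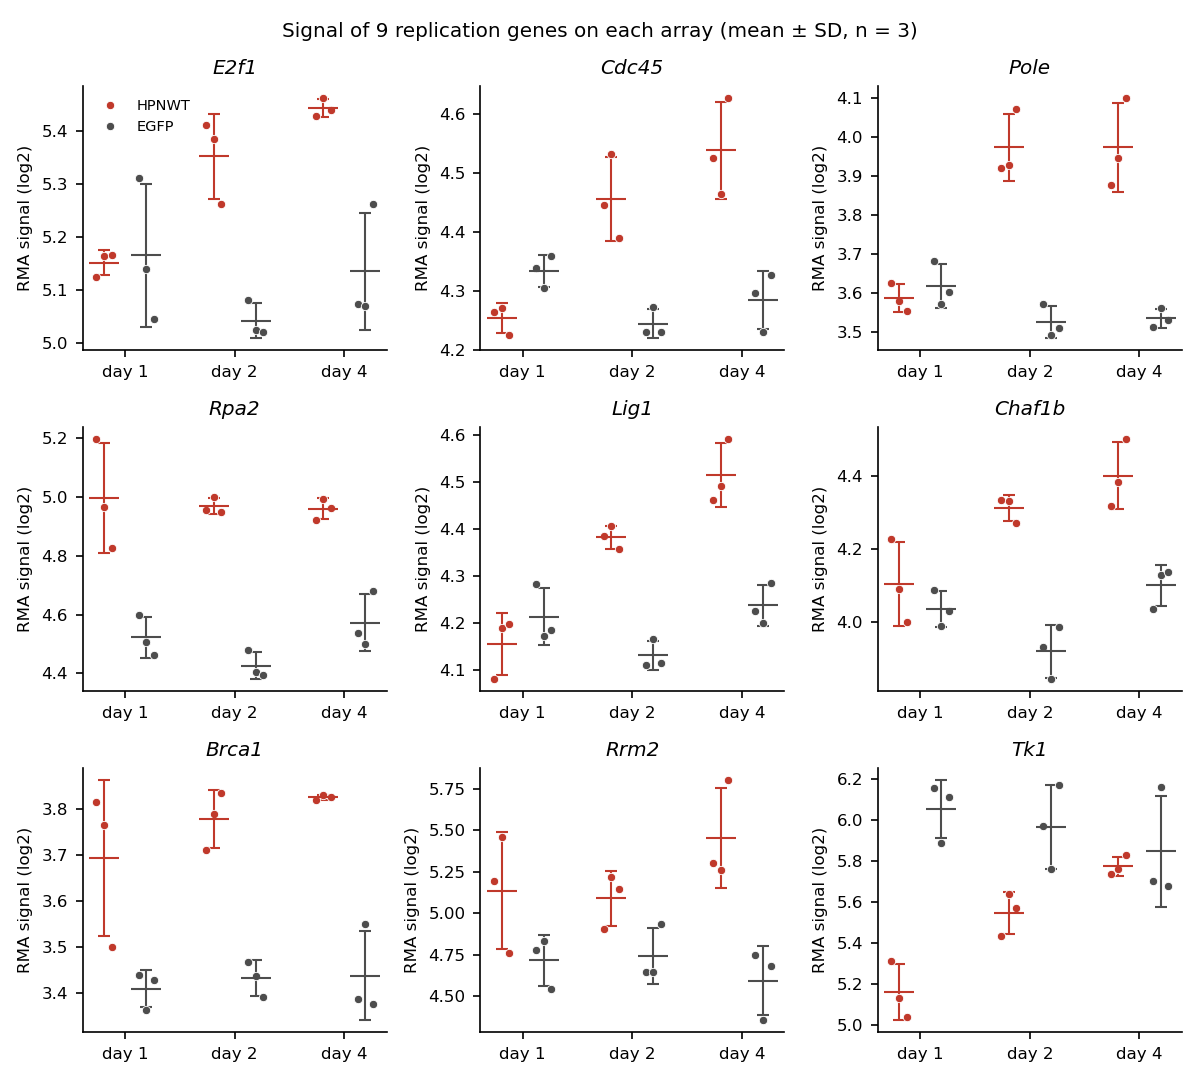
Log2 RMA signal (vertical axis) of 9 replication genes on each array by day, with HPNWT left of EGFP; points are arrays, horizontal lines are means and bars are the SD of 3 arrays. Pole, Lig1, Chaf1b, Cdc45 and E2f1 are separated by group at day 2 and day 4, Rpa2 and Brca1 at all 3 days, and Tk1 lies lower in HPNWT arrays at day 1 and day 2.

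Of the 4 chromatin assembly and DNA methylation genes, Chaf1a, Chaf1b and Uhrf1 were higher at day 2 and Chaf1b at day 4, and all 4 were separated by group on both days. Chaf1a and Chaf1b encode subunits of chromatin assembly factor 1, which places histones on new DNA, and Uhrf1 brings the maintenance methyltransferase Dnmt1 to it. Chaf1b had log2 signals of 4.33, 4.33 and 4.27 in HPNWT livers at day 2, against 3.93, 3.84 and 3.98 in EGFP livers, and 4.32, 4.38 and 4.50 in HPNWT livers at day 4, against 4.03, 4.13 and 4.14 in EGFP livers. No array crossed over on either day, and the differences were 0.39 (SE 0.07, limma adjusted p = 0.00467) and 0.30 (SE 0.07, adjusted p = 0.0349). Chaf1a had 5.13, 4.99 and 4.89 in HPNWT livers at day 2, against 4.71, 4.68 and 4.67 in EGFP livers. Uhrf1 had 4.85, 4.83 and 4.87 in HPNWT livers at day 2, against 4.57, 4.54 and 4.58 in EGFP livers. Both were separated by group, with differences of 0.32 (SE 0.08, adjusted p = 0.026) for Chaf1a and 0.29 (SE 0.07, adjusted p = 0.0293) for Uhrf1. The Chaf1b call of day 2 passed without any 1 array and that of day 4 missed the threshold in 7 fits (up to 0.16, without EGFP day 4 replicate 1). Chaf1a missed it in 5 fits (up to 0.12, without HPNWT day 2 replicate 1) and Uhrf1 in 6 (up to 0.117, without EGFP day 2 replicate 2). Dnmt1 differed by 0.20 at day 2 and 0.21 at day 4, without overlap of the arrays and without a call (adjusted p = 0.147 and 0.231).

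Of the 3 genes of repair at the fork, Brca1 was higher at all 3 days and Ung at day 2. Brca1, a tumour suppressor of homologous recombination that also guards stalled forks, had log2 signals of 3.82, 3.76 and 3.50 in HPNWT livers at day 1, against 3.44, 3.36 and 3.43 in EGFP livers. It had 3.71, 3.79 and 3.84 in HPNWT livers at day 2, against 3.47, 3.44 and 3.39 in EGFP livers, and 3.82, 3.83 and 3.83 in HPNWT livers at day 4, against 3.39, 3.55 and 3.38 in EGFP livers. No array overlapped at any day. The differences were 0.28 (limma adjusted p = 0.0473), 0.35 (adjusted p = 0.0153) and 0.39 (adjusted p = 0.0115) with an SE of 0.08. The day 1 call missed the threshold in 15 of 18 fits (up to 0.215, without HPNWT day 1 replicate 1), the day 2 call in 4 (up to 0.0637, without HPNWT day 2 replicate 2) and the day 4 call in 2 (up to 0.0649, without EGFP day 4 replicate 1). Ung, the glycosylase that removes uracil from DNA, had 5.86, 5.56 and 5.60 in HPNWT livers at day 2, against 5.15, 5.26 and 5.17 in EGFP livers. This difference of 0.48 (SE 0.12, adjusted p = 0.0219) showed no overlap and missed the threshold in 4 fits (up to 0.104, without HPNWT day 2 replicate 1). Exo1, an exonuclease of mismatch repair, differed by 0.06 at day 2 and 0.17 at day 4, with overlap.

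Fork protection genes gave a call each at day 2 and day 4. Timeless, which with Tipin keeps helicase and polymerase together, had log2 signals of 5.10, 4.98 and 4.92 in HPNWT livers at day 2, against 4.67, 4.70 and 4.70 in EGFP livers. Wdhd1, an adaptor that ties polymerase alpha to the helicase, had 3.59, 3.65 and 3.97 in HPNWT livers at day 4, against 3.23, 3.28 and 3.35 in EGFP livers. Each was separated by group, with differences of 0.31 for Timeless (SE 0.07, limma adjusted p = 0.0137) and 0.45 for Wdhd1 (SE 0.09, adjusted p = 0.0122). Timeless missed the threshold in 2 fits (up to 0.0651, without HPNWT day 2 replicate 1) and Wdhd1 in 1 (0.0669, without EGFP day 4 replicate 1). Gm26847, a long non-coding RNA gene that overlaps Timeless in the annotation, was higher as well at day 2, by 0.39 (adjusted p = 0.0285), and its part in the Timeless signal was not tested. Tipin differed by 0.23, 0.07 and 0.26 at day 1, day 2 and day 4, with no call. Slbp, which binds the stem-loop of histone mRNA, differed by 0.18 at day 2 without overlap (adjusted p = 0.0917). In the annotation 24 of the 50 genes overlap another gene, and 20 of those 29 partners had a cluster under their own symbol.

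**Figure D4:**
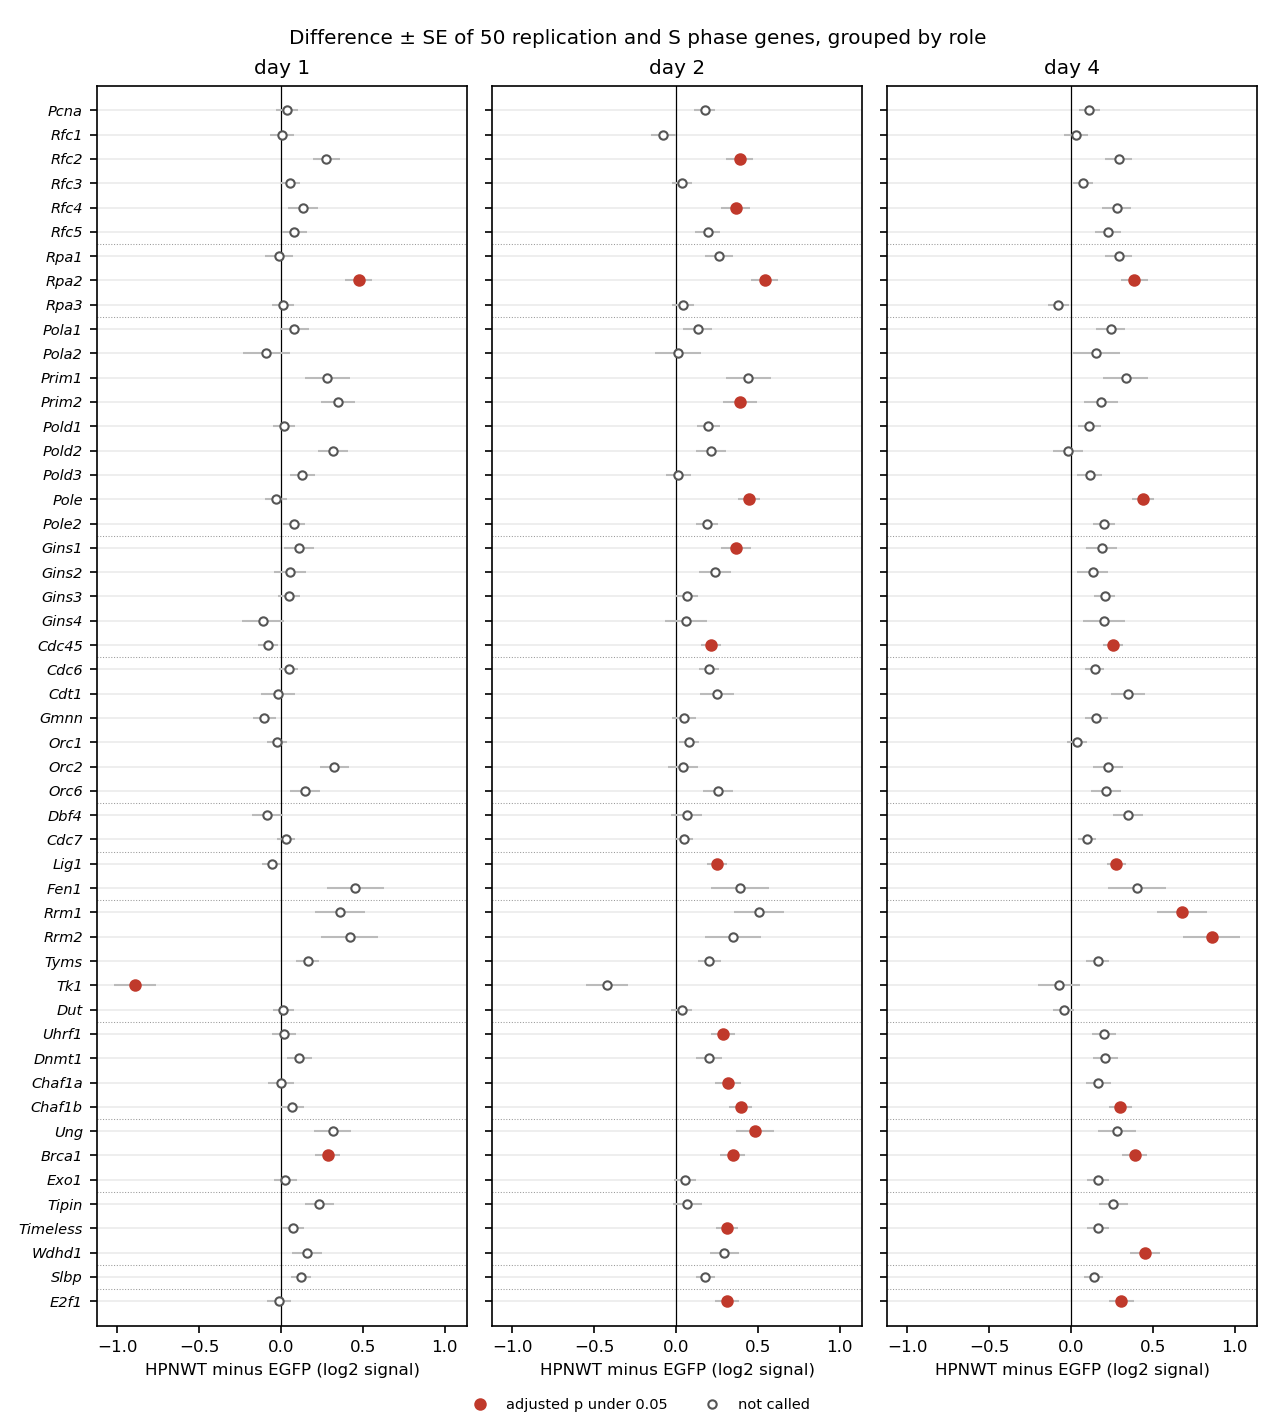
Difference HPNWT minus EGFP in log2 signal (horizontal axis, bars are the SE of the fit) for each of the 50 genes (rows, in groups by role) at each day; filled points have a limma adjusted p under 0.05. Filled points number 3 at day 1, 15 at day 2 and 10 at day 4, and the only one left of 0 is Tk1 at day 1.

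Over time, 7 genes were higher at both day 2 and day 4 (Rpa2, Pole, Cdc45, Lig1, Chaf1b, Brca1 and E2f1), against 0.822% of all clusters, and Rpa2 and Brca1 were so at all 3 days, against 0.533%. A call on 1 day and not on another does not show that the days differ. The test of that difference called none of the 50 genes for day 2 against day 1, for day 4 against day 2 or for day 4 against day 1 (limma, 0.00%, 0.00498% and 0.0946% of all clusters called). At an unadjusted p under 0.05 the counts were 11, 1 and 12 genes. No count over all clusters was made beside them, so they cannot be read as a result about the set. The smallest adjusted p was 0.0741, for Pole at day 4 against day 1, where the effect was 0.47 log2 larger (SE 0.10). For day 4 against day 1, 1 gene passed without EGFP day 4 replicate 2.

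Within HPNWT livers, Pole and Lig1 differed across the 3 days (limma moderated F-test, adjusted p = 0.0106 and 0.0195, with 0.640% of all clusters called). Pole averaged 3.59 log2 at day 1, 3.97 at day 2 and 3.97 at day 4 in HPNWT livers, and Lig1 averaged 4.16, 4.38 and 4.51. In the same test in HPNWT livers, 19 of the 50 genes had an unadjusted p under 0.05. No count over all clusters was made beside it either, so it cannot be read as a result about the set. This count of 2 calls became 1 without HPNWT day 1 replicate 1, none without HPNWT day 1 replicate 2, 1 without HPNWT day 4 replicate 2, and 3 at most. In EGFP livers no gene of the set differed across days, at adjusted or unadjusted p under 0.05 (limma, smallest adjusted p = 1, with 0.00% of all clusters called). Across the 50 genes, the differences of day 2 and day 4, which share no arrays, correlated with r = 0.64 and rho = 0.69. Over all clusters with a symbol the values were 0.60 and 0.37. Genes are not independent replicates, and these values are a description.

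Related genes outside the set moved as follows. Of 45 measured further replication and S phase genes, 4 were called higher at day 1, 9 at day 2 and 12 at day 4, and none was called lower. Their medians were 0.05, 0.16 and 0.12 log2. At day 1, day 2 and day 4, 14, 12 and 5 of the 45 differences lay below 0, down to −0.91, −0.90 and −0.34. Of all clusters, 2.97%, 2.16% and 1.54% were called higher on these days, which also holds beside the lists that follow. The shares called lower were 1.62%, 3.51% and 0.670%. Among those with the smallest p at day 4 were Ccna2, the cyclin of S and G2 phase (0.98, adjusted p = 8.27e-05), and Ccne2, a cyclin of the G1 to S transition (0.51, adjusted p = 0.00291). All 5 measured MCM genes were higher at day 2 and day 4 and none at day 1 (4 at an unadjusted p under 0.05), with medians of 0.39, 1.06 and 1.03 over the days. Mcm6, Mcm4 and Mcm2 differed by 1.40, 1.10 and 0.94 at day 2. Of 21 G2/M and mitosis genes, 19 were higher at day 4 and none at day 1 or day 2 (0 and 2 at an unadjusted p under 0.05), with medians of −0.01, 0.18 and 0.80. Ccnb2, Mki67 and Kif20a, a mitotic cyclin, a proliferation marker and a mitotic kinesin, differed by 2.02, 2.34 and 1.42 at day 4. All these genes lay on the same 18 arrays, and whether one list changed before another was not tested as a list.

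Markers of other cells were compared beside these results. None of the 11 lymphocyte markers lay above 6.16 log2 on average and none was higher on any day, and Cd4 was lower at day 1. The mean log2 signal of the lymphocyte list ran from 3.62 to 3.78 in HPNWT arrays and from 3.62 to 3.75 in EGFP arrays over all days. Of 10 myeloid markers, Mpeg1 was higher at day 2 and Mpeg1 and Ly6c2 at day 4, while 8, 7 and 6 of the 10 differences lay below 0 at day 1, day 2 and day 4 (medians −0.18, −0.13 and −0.02), and list means ran from 5.61 to 5.98 in HPNWT and 5.44 to 5.88 in EGFP arrays. Of 6 stellate markers, Reln was higher at day 2 and day 4, and at day 4 all 6 differences lay above 0, with list means from 6.227 to 6.91 in HPNWT against 6.04 to 6.222 in EGFP arrays. Of 5 cholangiocyte markers, Sox9 was higher at day 2, and all 5 differences lay above 0 at day 2 and at day 4, where 3 had an unadjusted p under 0.05. The cholangiocyte list means ran from 5.37 to 5.58 in HPNWT against 5.26 to 5.40 in EGFP arrays at day 1, where they overlapped. They were separated by group from 5.560 to 5.66 in HPNWT against 5.17 to 5.558 in EGFP arrays at day 2, and from 5.84 to 5.92 in HPNWT against 5.36 to 5.60 in EGFP arrays at day 4. These are the days on which most of the replication genes that passed were called. Of 2 erythroid markers measured, Alas2 was lower at day 4. Of 6 endothelial markers none passed (0, 2 and 1 at an unadjusted p under 0.05 at day 1, day 2 and day 4). Apoa1 was the one hepatocyte marker of 8 that was higher, at day 1 and day 2. The part of these cells in the replication genes was not tested.

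The authors' deposited table, which compares HPNWT with its control on a wider scale with its own software, lists a false discovery rate under 0.05 for 3, 20 and 11 of the 50 genes at day 1, day 2 and day 4. Of these, 2, 13 and 10 were called here too. The authors' deposited table gives higher values for 2, 20 and 11 of them, against 2.29%, 1.83% and 1.01% of all clusters there. Genes listed at day 2 in the authors' deposited table and not called here were Pcna, Pole2, Prim1, Rrm1, Slbp, Tyms and Wdhd1. Called here but above that false discovery rate there were Brca1 at day 1 (0.0528), and Chaf1a (0.0587) and Uhrf1 (0.1038) at day 2. A signed fold of 2 or more is listed there for Tk1 at day 1 (−2.57) and Rrm2 at day 4 (2.02) alone.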

How the data were processed

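Per the labels, the deposited log2 values are RMA (robust multi-array average) signals from the Transcriptome Analysis Console software. The authors' deposited comparison tables hold, per the file headers, group averages on a wider log2 scale, p-values with their false discovery rates, and a signed fold, treated as a score here, with a minus sign where the control is above. The software settings and version are not given in the sources used here. There are 72688 probe sets, of which 6732 are controls, and 40161 clusters carry a symbol.

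The members and all gene lists were chosen with earlier results of these data known. Per symbol the cluster with the highest mean over the 18 arrays was taken. limma 3.58.1 (R 4.3.3, data.table version 1.17.8) fitted 6 group means to the log2 values of the 40161 clusters with lmFit and eBayes (12 residual degrees of freedom), with no further scaling or filter. Contrasts were HPNWT minus EGFP at each day and the differences of these effects between days, and F-tests compared days within each label. Tests were 2-sided, with Benjamini-Hochberg adjustment over all clusters and a threshold of 0.05. The fit was tested on simulated data. An exact permutation test of 3 against 3 arrays cannot go below p = 0.1 and was not used, and the number of arrays limits the precision. Per-array values are given for members called at any day and for E2f1, Pcna, Rrm2, Tk1 and Cdc6; of other lists at most 3 genes with the smallest p at the day with most calls are named. A result that this rule includes is not reported here. Marker genes and genes that overlap a member were named after their values were seen. Alternatives were median centring, repeated quantile normalization, the arrays of 1 comparison alone, replicate numbers as a block, only clusters above the negative-control percentile, array weights, the negative-control median as a covariate, and each array left out. Promoters and gene positions came from RefSeq tables (GRCm38.p6). Figures used Python 3.11.15, pandas 2.3.3 and matplotlib 3.10.9.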

Additional observations from a re-analysis of the deposited data

Results flagged for a closer look

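The effect of HPNWT against EGFP differed between days, by limma's test of the difference, in 6 of 177 results checked for a difference between days. None of the 6 was of the 50 replication genes. All 6 came from genes named from other lists for their smallest p at day 2 or day 4. That choice favours a larger effect at the later days, so the 6 are no like comparison with the 50 genes. Other genes of those lists were not checked in this way. For Ccnb2 the effect was 1.87 log2 larger at day 4 than at day 2 (SE 0.26, adjusted p = 0.0449) and 2.03 larger at day 4 than at day 1 (SE 0.26, adjusted p = 0.00504). Against day 1, the day 4 effect was also larger for Mki67 by 2.38 (SE 0.36, adjusted p = 0.0129), for Kif20a by 1.46 (SE 0.24, adjusted p = 0.0219), for Mcm6 by 1.45 (SE 0.18, adjusted p = 0.00504) and for Ccna2 by 1.03 (SE 0.15, adjusted p = 0.0114).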

How the results depend on the processing

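Of the 28 differences called among the 50 genes (3 at day 1, 15 at day 2, 10 at day 4), none changed sign under the alternatives it was run under (the percentile filter leaves 1 of the 28), and 6 passed without each of the 18 arrays in turn. Calls kept were 16 after median centring, 19 after repeated quantile normalization, 14 on the arrays of the comparison alone, 11 with the replicate block, 10 with the negative-control covariate and 28 with array weights. The count at day 1 was 1 on its own arrays, a lower gene. With array weights it was 18, of which 17 were higher and 1 was lower. Of all clusters, 1.1% and 11.7% were higher in these fits. At day 2 the count was 7 after median centring, 2 of 4 genes above the negative-control percentile, 34 with array weights (33 higher, 1 lower) and 0 with the covariate. Of all clusters tested, 1.03%, 6.4%, 11.3% and 0.177% were higher under these settings. Array weights also called 3703 of the 40161 clusters lower at day 2. At day 4 the count was 0 on its own arrays, 0 of 4 above the percentile and 16 with array weights, where 0.284%, 3.76% and 3.21% of all clusters tested were higher. Array weights also called 4 genes for day 2 against day 1, 6 for day 4 against day 1 and 7 across days in HPNWT livers. Across days in HPNWT livers the count was 0 after median centring, 1 after quantile normalization, 0 on its own arrays and 0 above the percentile. The labels do not say whether replicate numbers pair animals. Same-numbered deviations correlated from −0.25 to 0.11 (1 of 9 over 0.1) and unlike-numbered ones from −0.22 to 0.26. With 3 arrays a group these correlations cannot settle it. The replicate block gave 5 genes at day 2, 5 at day 4 and 1 across days in HPNWT livers and moved no other count by over 1.5 times. Without 1 array, counts ran from 2 to 10 at day 1, 4 to 22 at day 2, 2 to 12 at day 4, 0 to 1 for day 4 against day 1, 0 to 3 across days in HPNWT livers and 0 to 0 for the others. The median difference ran from 0.043 to 0.103 at day 1, 0.202 to 0.237 at day 2 and 0.169 to 0.253 at day 4, and was 0.13 at day 1 above the percentile. The E2f1 difference at day 1 (−0.01) turned to 0.014 after median centring and 0.019 with array weights, and ran from −0.074 to 0.059 without 1 array, above 0 without HPNWT day 1 replicate 1 and EGFP day 1 replicate 1. The Tk1 difference at day 4 (−0.07) turned to 0.083 without EGFP day 4 replicate 2 and ran down to −0.16 without another array. Fewer genes or arrays entered the percentile filter and the fits on own arrays, and for the other alternatives the cause was not tested. Higher calls were 38.2% of all calls at day 2, and 24% after median centring, 55.2% with array weights and 81.6% with the covariate. A mean over several clusters per symbol was not run because each gene has 1 cluster. Most of the genes lie under the 95th percentile of the negative controls, which limits how exactly their differences can be read.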
